A study of Mus musculus with 2 samples.

Results

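This account covers 38 genes of collagen biology in mouse spleen, namely 19 collagen chains, 11 genes that fold or process collagen and 8 genes of small proteoglycans and other matrix proteins, out of 20655 genes with a named probe on the array. They were chosen by function, as a list of gene symbols matched to probes through the transcript accession printed in the array files. Probes were found for 37 of the 38, and Col12a1 had none under a matched accession. A gene counted as measured when a probe was well above background on at least 1 array, by the call of the scanner software. That held for 33 genes, 30 of them on both arrays and 3 (Col27a1, Plod1 and Lum) only on the array labelled knockout. Col6a2, Col8a1, Col15a1 and Plod2 had probes, none of them well above background on either array.

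The study hybridised total RNA from fresh spleens to 2 one-colour Agilent arrays, 1 per group. The wild-type group was male, untreated and Loxl3+/+, and the other was male, untreated and Loxl3-/-, with the mice described as healthy. Neither the age and strain of the animals, the construction of the knockout allele, nor whether spleens were pooled was given in the sources used here. With 1 array per group no test between genotypes exists, every value describes these 2 arrays, and a difference that a second pair of animals would not show cannot be told apart from one of genotype.

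Collagens are the rope-like proteins that carry tension in connective tissue. Their chains are hydroxylated and wound into triple helices in the endoplasmic reticulum, trimmed by proteases after secretion, assembled into fibrils or sheets, and crosslinked by lysyl oxidases, the enzyme family to which Loxl3 belongs. Small leucine-rich proteoglycans such as decorin and biglycan bind the fibrils. In the spleen this matrix forms the capsule and trabeculae, the reticular fibres and the basement membranes of vessels and sinuses.

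Values are processed signals, the background-corrected intensities of the scanner software. The array labelled knockout was 1.44-fold brighter at its 75th percentile (1400 against 974), so each signal was divided by that percentile of its own array, and a difference is the log2 ratio of the array labelled knockout (KO-labelled) over the wild-type (WT) array after this scaling. An error written after ± is the spot error of the software, propagated to the log2 ratio, and holds no variation between animals. The software error had a median of 0.205 over the 13714 genes measured, and their median difference was −0.09. Spleen markers were well above background on both arrays for all 4 B cell, 4 T cell and 5 red pulp macrophage genes, with extremes of 0.75 (Cd79a) and −0.39 (Cd79b), 0.27 (Cd4) and −0.46 (Cd3d), and 0.05 (Vcam1) and −0.86 (Cd5l). The single Loxl3 probe had signals of 117 and 125, a scaled difference of −0.43 ± 0.29. Where it lies relative to the deletion is not given, so it does not check the label; the arrays are therefore named WT and KO-labelled here.

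RefSeq promoter sequences of build GRCm38.p6 were matched for 29 of the 38 genes. The 250 bases before the annotated start are shown for Bgn, the only member at 2-fold, and for Col1a2, whose value lay near 0 while that of its partner chain Col1a1 did not. Capitals mark a match on either strand to the CCAAT box (CCAAT), to the GC box bound by Sp1 (GGGCGG) or to the TATA box (TATAAA), and neighbouring matches can overlap or touch. The Bgn stretch lies at chrX:73483351-73483600 on the plus strand and the Col1a2 stretch at chr6:4505368-4505617 on the plus strand.
Bgn: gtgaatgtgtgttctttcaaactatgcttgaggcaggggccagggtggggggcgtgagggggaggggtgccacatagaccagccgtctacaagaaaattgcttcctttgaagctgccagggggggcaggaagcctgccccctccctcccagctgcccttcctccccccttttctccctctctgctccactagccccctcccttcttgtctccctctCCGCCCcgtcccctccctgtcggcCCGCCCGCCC
Col1a2: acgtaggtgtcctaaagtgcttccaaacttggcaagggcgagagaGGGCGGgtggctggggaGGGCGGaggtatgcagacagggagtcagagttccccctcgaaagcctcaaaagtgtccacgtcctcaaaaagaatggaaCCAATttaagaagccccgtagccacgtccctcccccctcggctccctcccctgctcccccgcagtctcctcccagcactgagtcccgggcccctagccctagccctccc
The Bgn stretch held 3 matches to GGGCGG and none to the other motifs, and the Col1a2 stretch held 2 to GGGCGG and 1 to CCAAT. Over the 32 promoters of members, GGGCGG was present in 59.4%, beside 53.5% of the 13899 promoters of measured genes and 32.7% of all 32851 in the table. CCAAT was present in 28.1%, beside 34.8% and 33.8%, and TATAAA in 12.5%, beside 7.47% and 12.4%.

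Of the 15 measured collagen chains, 5 were at least 1.5-fold higher on the KO-labelled array, none was 2-fold different, and 5 were within 1 software error of 0. The small proteoglycan genes other than Bgn were all within 1 error of 0. Bgn was 2.41-fold higher and was the only measured member at 2-fold, and none was 2-fold lower. That is 3.03% of the 33 measured members, beside 2.11% of all measured genes at 2-fold higher and 1.98% at 2-fold lower, so the share is near the background. At 1.5-fold, 8 members (24.2%) were higher and 1 (3.03%) was lower, beside 7.49% and 9.29% of all measured genes. The 8 were Col1a1, Col4a1, Col4a2, Col18a1, Col27a1, Plod1, Bgn and Sparc, and the lower one was Mgp. Col27a1 and Plod1 passed the background filter only through the array on which they were brighter. With both arrays required, 6 of 30 members were 1.5-fold higher, beside 6.47% of genes. Scaling on the array medians left 3 of 33, beside 5.57%. The median over the measured members was 0.25, beside −0.09 over all measured genes, with 0.08 after normexp background correction and 0.15 after scaling on the array medians as the lowest of the other settings. Values of 24 of the 33 (72.7%) lay above 0, beside 40.8% of all measured genes. Within 1 software error of 0 were 12 members (36.4%), beside 41.4% of all measured genes, so that share is near the background. In RNA of whole spleen, more cells of a type and more RNA per cell cannot be told apart.

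**Figure D1:**
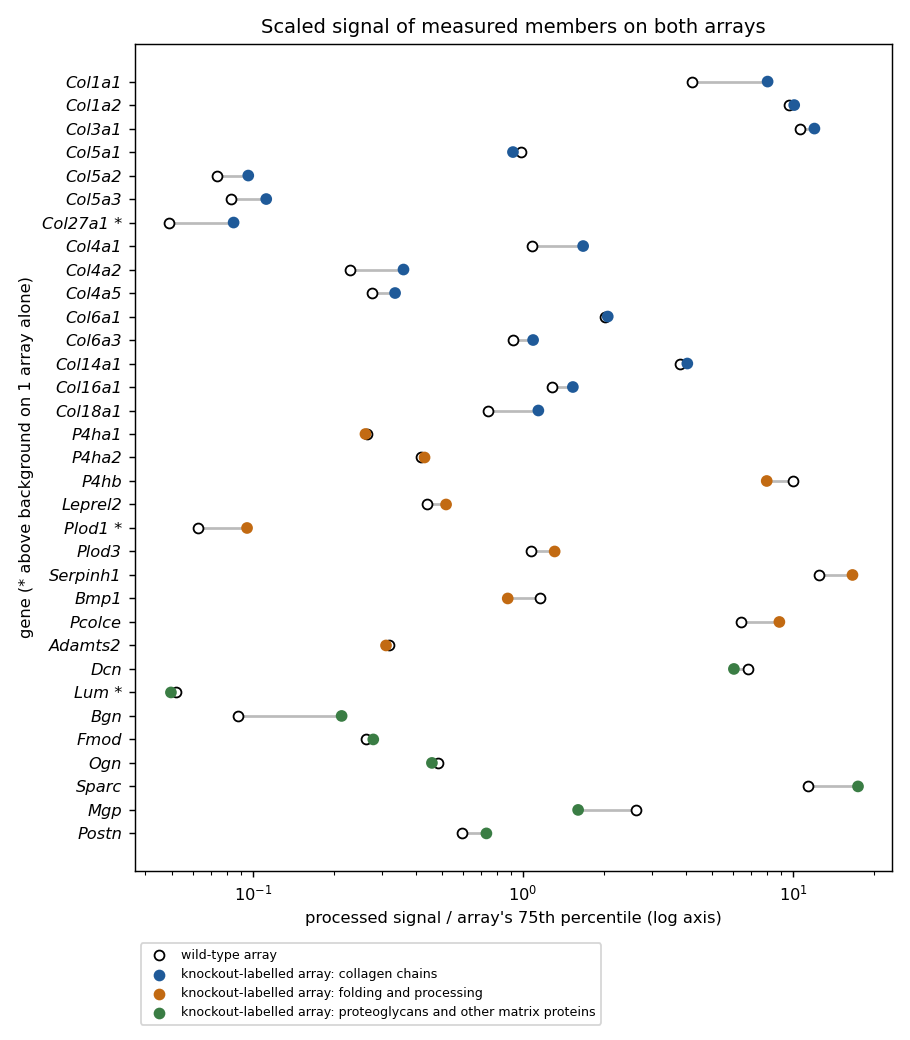
Processed signal divided by the 75th percentile of its array (log axis) for the 33 measured members, with open circles for the WT array and filled circles, coloured by class, for the KO-labelled array. Bgn and Col1a1 have the widest gaps with the KO-labelled array to the right, and Mgp the widest with it to the left; levels of different genes come from different probes and are not comparable.

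Markers of other tissues also differed between these arrays. All 12 exocrine pancreas genes were at least 2-fold higher on the KO-labelled array, in order Clps (4.49), Prss1 (4.24), Cel (4.21), Cpa1 (4.08), Ctrb1 (4.07), Pnlip (4.0), Cela3b (3.90), Cela2a (3.73), Cpb1 (3.45), Prss2 (3.31), Cela1 (2.52) and Amy2a5 (2.39). They encode digestive enzymes and the lipase cofactor colipase, and their summed scaled signal was 19.1 on the WT array and 170 on the other. Of 10 genes of fibroblasts and stromal cells, 5 lay above and 5 below 0, none at 2-fold, and the summed scaled signal was 71.2 and 71.5. This sum rests largely on Thy1, at −0.28. The unscaled signals of Thy1 were 35478 and 41874, beside 69344 and 100145 for the whole list, so the near-equal sums depend on Thy1. The next brightest genes of the list, Cxcl12 and Pdgfrb, were at 0.67 and −0.43. Whether the Thy1 signal came from stromal cells was not tested. The extremes of the list were Dpt, a matrix protein gene of fibroblasts, at 0.68 and Pi16, a marker of adventitial fibroblasts, at −0.86. Of 6 smooth muscle and pericyte genes, 3 lay above and 3 below 0, and the summed scaled signal was 23.5 and 19.7. Rgs5 (1.25) and Des (1.13) were at 2-fold, with WT signals of 59.0 and 159. The brighter Tagln (14332 on the WT array), Acta2 (7345) and Cnn1 (913) were at −0.28, −0.30 and −0.15. Endothelial genes, 5 of 6 measured, had a summed scaled signal of 19.0 and 23.9, from Kdr at 0.00 to Tek at 0.73, with Emcn not well above background. Of 6 adipocyte genes 5 were measured and all lay above 0, with Cfd at 1.01, Lep not well above background and a summed scaled signal of 10.1 and 16.1. The 5 mesothelium genes ranged from −0.19 (Msln) to 0.27 (Lrrn4), with sums of 4.41 and 4.20. Of 6 islet genes 3 were measured, with sums of 0.806 and 1.03. Ins2 was at 0.41. Ins1, well above background only on the KO-labelled array, was at 0.90 ± 0.54. It was at 0.41 once its WT signal was raised to the lowest called well above background. Sst, well above background only on the WT array, was at −0.78 ± 0.49. Gcg, Iapp and Chga were not well above background. What part any of these tissues has in the members' differences was not tested.

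Fibril-forming chains make the banded fibrils of connective tissue, and 6 of the 7 lay above 0. Col1a1, the α1 chain of type I collagen, had signals of 4125 on the WT array and 11272 on the KO-labelled array, a scaled difference of 0.93 ± 0.20 or 1.90-fold. Col1a2, the α2 chain of the same molecule, had signals of 9411 and 14128 and a difference of 0.06 ± 0.20, within its error. The partner chains thus differed from each other by 0.86 ± 0.29, and this gap ranged from 0.81 to 1.0 over the other settings. Each chain had a single probe, so neither a constant scaling nor the choice of probe could move this gap.

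Col3a1, the type III chain abundant in reticular fibres, had signals of 10348 and 16828 and a difference of 0.18 ± 0.20. Type V chains nucleate type I fibrils. Col5a1 was at −0.10 ± 0.21 (signals 962 and 1285), Col5a2 at 0.39 ± 0.36 (71.6 and 134) and Col5a3 at 0.43 ± 0.29 (81.0 and 156). The first is within its error and the other values exceed theirs by little. Normexp background correction took Col5a2 to 0.0 and Col5a3 to 0.10. Col27a1, a fibrillar chain best known from cartilage, was above background on the KO-labelled array alone, with signals of 47.7 and 119. The scaled ratio was 1.73 with a software error of 0.53 on the log2 scale, and normexp background correction took the log2 value from 0.79 to −0.02, so no direction is given.

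Type IV collagen forms the sheet of basement membranes. Col4a1 was printed 10 times on each array. Its unscaled spot signals ranged from 940 to 1197 on the WT array and from 2207 to 2473 on the KO-labelled array. The gap between these ranges includes the 1.44-fold greater brightness of the KO-labelled array. The scaled difference was 0.63 ± 0.0642 (SD over 10 spots, 1 array a group), with spots from 0.52 to 0.76. Repeated spots show the precision of the array and are not replicates of the genotype. Col4a2, which assembles with Col4a1 in a single molecule, had signals of 223 and 505 and a difference of 0.66 ± 0.22. These partner chains differed from each other by −0.03 ± 0.30. Their genes lie head to head, with annotated starts 21 bases apart on opposite strands of chromosome 8 in GRCm38.p6. Col4a5, a chain of other type IV molecules, had signals of 268 and 471 and a difference of 0.29 ± 0.21.

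**Figure D2:**
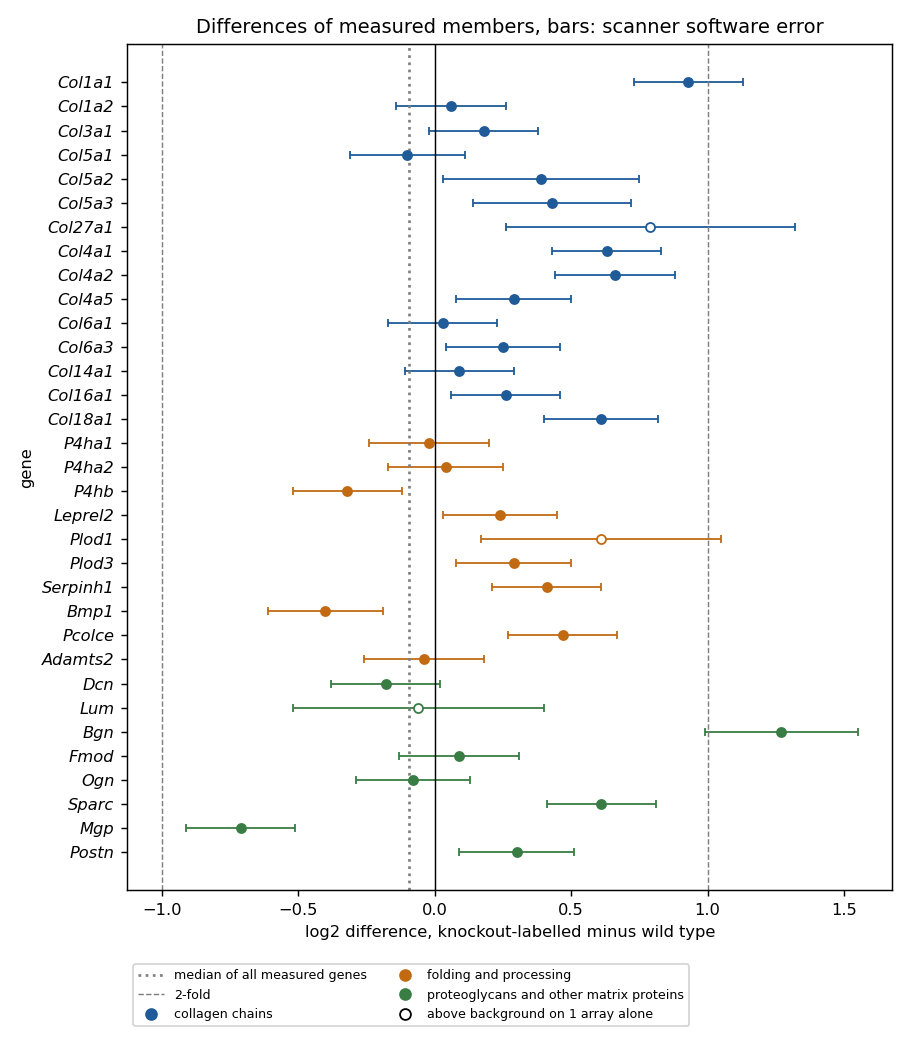
Scaled log2 difference of the KO-labelled minus the WT array for the 33 measured members, with bars of 1 scanner software error, open symbols for genes above background on 1 array alone, a dotted line at the median of all measured genes and dashed lines at 2-fold. Of the 15 collagen chains only Col5a1 lies below 0, and Bgn alone passes 2-fold.

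The remaining chains had smaller values, apart from Col18a1. Col6a1, of the beaded filaments of type VI collagen, had signals of 1961 and 2885 and a difference of 0.03 ± 0.20. Its partner Col6a3 had signals of 895 and 1527 and a difference of 0.25 ± 0.21. Type XIV and type XVI collagens decorate fibrils. Col14a1 had signals of 3706 and 5683 and a difference of 0.09 ± 0.20, while its dimmer probe (197 and 455) was at 0.69. Col16a1 was at 0.26 ± 0.20 (1250 and 2147), with another detected probe at 0.44. Col18a1, the basement membrane collagen whose end fragment is endostatin, had signals of 726 and 1597 and a difference of 0.61 ± 0.21, or 1.53-fold, and its other probe was at 0.34. Over the 15 measured chains the median was 0.29, and 14 lay above 0; the median was between 0.17 and 0.44 under the other settings. The chains whose sign changed under at least 1 setting were Col1a2, Col5a1, Col6a1, Col14a1 and Col27a1.

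Genes that fold and process collagen were split. Of the 10 measured, 6 lay above 0 and 4 below, with a median of 0.14 and none at 2-fold. Prolyl 4-hydroxylase, which stabilises the triple helix, is built from a catalytic and a protein disulfide isomerase subunit. Its catalytic subunit genes P4ha1 and P4ha2 were at −0.02 ± 0.22 (signals 258 and 365) and 0.04 ± 0.21 (409 and 605). A dimmer P4ha1 probe was at 0.45. P4hb, the disulfide isomerase subunit that also serves other secreted proteins, had signals of 9712 and 11186 and a difference of −0.32 ± 0.20. Leprel2, now named P3h3 and a prolyl 3-hydroxylase family gene, was at 0.24 ± 0.21 (429 and 727).

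Lysyl hydroxylases prepare the lysines that lysyl oxidases later crosslink. Plod3 had signals of 1045 and 1839 and a difference of 0.29 ± 0.21. Plod1 was above background on the KO-labelled array alone with both of its probes. Its brighter probe had signals of 60.9 and 133 and a difference of 0.61 ± 0.44, or 0.10 with normexp background correction, and the other was at 0.58. Plod2 reached that call on neither array. Serpinh1, the collagen-specific chaperone HSP47, had signals of 12170 and 23182 and a difference of 0.41 ± 0.20, or 1.33-fold. It was above 0 under each setting tried, from 0.31 to 0.71.

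Proteases and their helper trim procollagen after secretion. Pcolce, the enhancer of the C-propeptide protease, had signals of 6264 and 12459 and a difference of 0.47 ± 0.20. Bmp1, which encodes that protease, was at −0.40 ± 0.21 with its brightest probe (1128 and 1229). Its other probes were at −0.04 (453 and 634) and 0.69 (164 and 380), the last designed from a non-coding transcript record, so no single direction holds for Bmp1. Adamts2, the N-propeptide protease gene, was at −0.04 ± 0.22 (311 and 435). The enhancer and the protease gene therefore lay on opposite sides of 0 with their brightest probes, and the protease probes disagreed among themselves.

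**Figure D3:**
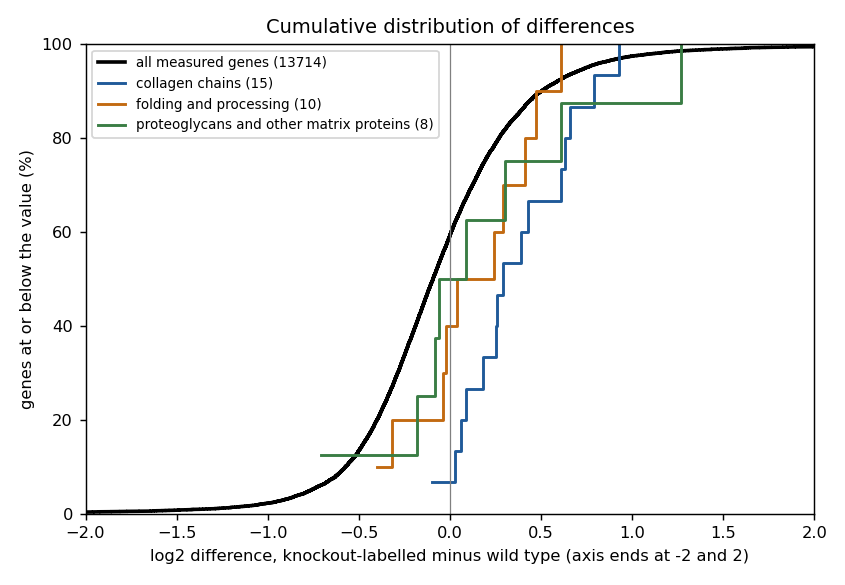
Cumulative share of genes (percent) against the log2 difference for all 13714 measured genes (black) and for the measured collagen chains, folding and processing genes, and proteoglycan and other matrix genes (colours). The collagen curve runs to the right of the curve of all genes up to its own highest value, with medians of 0.29 and −0.09, while the proteoglycan curve crosses that of all genes at both ends, where Mgp and Bgn lie.

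The small leucine-rich proteoglycan genes did not share a direction. Bgn, which encodes biglycan, had signals of 85.9 on the WT array and 298 on the KO-labelled array, a scaled difference of 1.27 ± 0.28. Of all measured genes, 98.5% had a lower value. Both signals are dim beside the background floor of 41.9 and 55.2 (the lowest signals called well above background), and with normexp background correction the value was 0.65. Dcn, which encodes the close relative decorin, had signals of 6655 and 8463 and a difference of −0.18 ± 0.20. The pair differed by 1.45 ± 0.35, and by 0.89 to 1.45 over the settings.

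Fmod, encoding fibromodulin, was at 0.09 ± 0.22 (signals 255 and 391), and Ogn, encoding osteoglycin, at −0.08 ± 0.21 (474 and 644). Lum, encoding lumican, was above background on the KO-labelled array alone (50.4 and 69.6), with no fold above 1 after scaling. Fmod, Ogn, Lum and Dcn all changed sign under at least 1 setting, so no direction is given for them.

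Sparc, a collagen-binding matricellular protein also present in platelets, had signals of 11126 and 24361 and a difference of 0.61 ± 0.20 with its brighter probe. The other probe was at −0.02 (1842 and 2616), so the difference rests on a single probe. Postn, encoding periostin, had signals of 578 and 1025 and a difference of 0.30 ± 0.21. Mgp, an inhibitor of calcification of matrix, was the lowest member, with signals of 2549 and 2238 and a difference of −0.71 ± 0.20, or 0.611-fold. It was also the only measured member whose unscaled signal was lower on the brighter, KO-labelled array, and it lay below 0 under each setting tried, from −1.04 to −0.56.

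**Figure D4:**
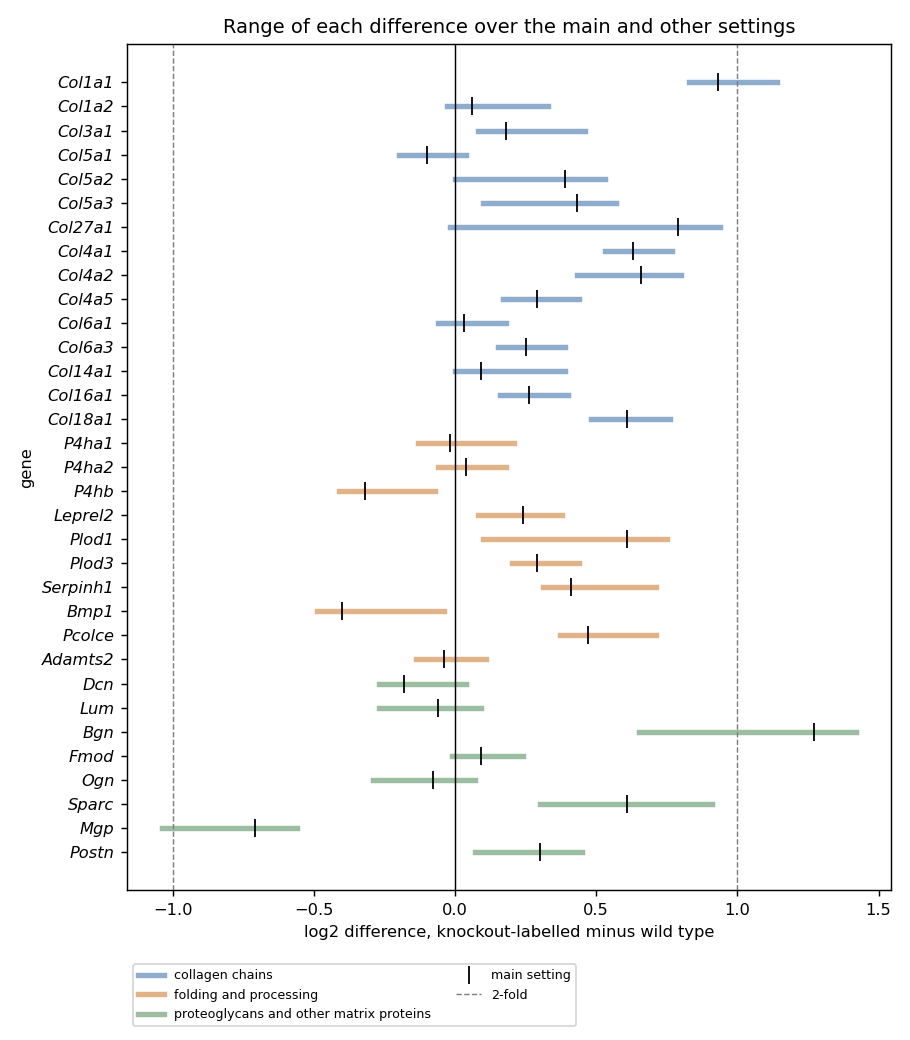
Range of the log2 difference of each measured member over the main setting (black tick) and the other settings tried (coloured bar), with dashed lines at 2-fold. The bars of Col1a1, Bgn and Mgp reach 2-fold, and 12 of the 33 genes have values on both sides of 0.

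Among 7 members with more than 1 detected probe, the probes of 4 lay on a single side of 0 (Col14a1, Col16a1, Col18a1 and Plod1). Those of P4ha1, Bmp1 and Sparc did not. Across the settings, 18 members stayed above 0, though Col5a2 fell to 0.0 with normexp. Another 3 stayed below 0 (P4hb, Bmp1 and Mgp), while 12 had values of both signs. Most settings reuse the brightest probe of a gene. Bmp1 was at −0.04 with the median of its probes, which ran from −0.40 to 0.69.

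Other genes of collagen biology, in 6 further lists, gave mostly small values. Of 25 further collagen chains only 11 were measured, with a median of 0.05. Col20a1, a fibril-associated chain, was the exception at 3.12-fold higher (signals 168 and 754, 1.64 ± 0.24, other probe 1.6), and no chain was 2-fold lower. Of 20 further folding and processing genes, 16 were measured with a median of 0.11 and none at 2-fold. The prolyl 3-hydroxylase gene P3h2 was at 0.94 and P4ha3 at −0.46. Of 11 further small proteoglycan genes, 3 were measured, all above 0 and none at 2-fold, the highest being Chad at 0.47.

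Of 15 other matrix glycoprotein genes, 14 were measured with a median of 0.10, and 1 was 2-fold lower. This was Thbs1, encoding thrombospondin 1, a protein stored in platelet granules, with signals of 4795 and 2611 and a difference of −1.40 ± 0.20. Among collagen breakdown and uptake genes, all 15 were measured with a median of −0.10 and 2 were 2-fold lower. Mmp8, the collagenase of neutrophil granules, was at −1.84 ± 0.23 (441 and 177) and the collagenase Mmp13 at −1.07 ± 0.30 (119 and 81.4). Of 9 collagen receptor genes, 7 were measured with a median of −0.14. Gp6, the collagen receptor of platelets, was at −1.61 ± 0.25 (371 and 174). Itga1, the α1 integrin chain, was 1.03 ± 0.21 higher by its brighter probe (197 and 580), while its other probe was at −0.11.

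Platelet markers moved with Thbs1 and Gp6. All 6 megakaryocyte and platelet genes were below 0, 5 of them at 2-fold (Treml1 −1.91, Gp1ba −1.86, Ppbp −1.83, Pf4 −1.78 and Gp9 −1.36), and their summed scaled signal was 47.0 on the WT array and 13.8 on the KO-labelled array. The part of platelets in the values of Thbs1, Gp6 and Sparc was not tested.

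**Figure D5:**
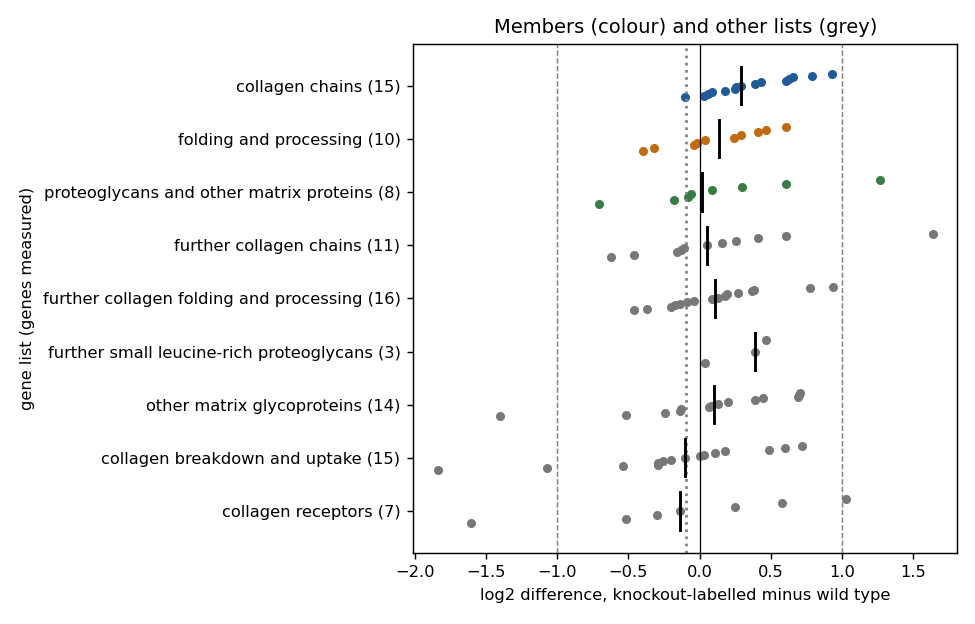
Log2 difference of each measured gene (points) by list, with members in colour, other collagen pathway lists in grey, black bars at list medians, a dotted line at the median of all measured genes and dashed lines at 2-fold. Member classes have medians of 0.29, 0.14 and 0.02, and the points beyond 2-fold on the lower side are Thbs1, Mmp8, Mmp13 and Gp6.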

How the data were processed

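Per the file headers, the deposited intensity values came from Agilent Feature Extraction 11.0.1.1 under protocol GE1_1100_Jul11, with probe positions on mm9, and both arrays were in 1 scan. The authors' deposited log2 value table has a median of 6.71 in both columns and matched quantile-normalized scanner values, with 3 of 39420 probes differing by over 1. Its processing steps are not given in the sources used here.

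Control spots and spots flagged as outliers (110 and 132) were left out, and no spot was saturated. Log2 processed signals of a probe's spots were averaged and each array's 75th percentile was subtracted. Unversioned accessions found in the RefSeq transcript table of GRCm38.p6 named 27226 probes. The brightest detected probe stood for a gene. A gene above background on 1 array alone counted toward a fold only through its bound, in which the dim side was raised to the lowest scaled signal called well above background on that array wherever it lay below it. The number of arrays limits the precision, and with 0 residual degrees of freedom no p-value was computed. Over 268 probes with repeated spots, the difference had a median SD of 0.112.

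The members, the lists and the tests were chosen with earlier results of these data known. Every member is named. From each other list the text names genes at 2-fold. Where there is none, it names the largest difference in each direction among genes above background on both arrays. The islet genes Ins1 and Sst, and Thy1, Cxcl12 and Pdgfrb of the stromal list, were added after their values were seen. So were the smooth muscle genes Acta2, Tagln and Cnn1 and the matrix glycoprotein genes Nid1, Ecm1 and Vcan. Normexp used the median spot signal. Python and R with limma 3.58.1 were used, and the steps were tested on simulated data.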

Additional observations from a re-analysis of the deposited data

How the results depend on the processing

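In all, 10 alternatives were run, of which 9 gave a value for Col27a1, Plod1 and Lum. The number of members at 2-fold higher was 2 in place of 1 when scaled on probes above background on both arrays, with quantile normalization, after removal of a loess trend, and in the deposited table, since Col1a1 joined Bgn (1.07, 1.11, 1.14 and 1.12). Normexp also gave 1, but that was Col1a1 (1.04), with Bgn at 0.65, and it put 1 member 2-fold lower, Mgp (−1.04). At 1.5-fold, 8 members were higher and 1 lower; scaling on the array medians left 3 and 1, beside 5.57% and 13.8% of all genes, and normexp left 5 and 1, beside 3.78% and 7.04%. The median over members moved to 0.39 when scaled on probes above background on both arrays and to 0.08 with normexp, and was between 0.15 and 0.30 otherwise. That scaling also shifted the median of all genes by 0.15. As a constant shift it cannot change the gap between members and all genes, which was 0.34. With normexp the gap was 0.18. Over all genes at 2-fold, that scaling gave 445 higher and 182 lower in place of 290 and 271, scaling on medians 242 and 379, and normexp 150 and 177. With no filter on dim probes 37 members had values and 26 lay above 0, beside 36.2% of all genes. Scaling on the array medians put 19 of the 33 members above 0, beside 32.3% of genes. Scaling on probes above background on both arrays put 29 there, beside 55.4%. Of 327 values of single members under the alternatives, 246 were within the repeated-spot SD (0.112) of the main value and 81 moved by more. This split follows in part from the settings and is no measure of robustness. A constant scaling moves every member alike, by 0.15 on probes above background on both arrays and by −0.09 on medians. The filters and the probe rule leave a gene with a single detected probe unchanged. Dim genes (Bgn, Col5a2, Col5a3, Col27a1, Plod1, Lum) are limited by their distance from background. No paired analysis was possible because each group has 1 array.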
